A study of Mus musculus with 10 samples.

Results

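The genes described here are 10 of the Notch pathway in the embryonic mouse lens: the receptors Notch1, Notch2 and Notch3, the ligand Jag1, the Fringe genes Lfng, Mfng and Rfng, and the transcriptional repressors Hes1, Hes5 and Hey1. They were chosen by name, and each had 1 probe set on the array, so 10 of 10 were measured among 19938 genes. Lenses came from embryos at E13.5, and the pair of lenses of each embryo gave 1 RNA sample and 1 array, with 5 embryos in each group. DicerCN embryos had the genotype Le-Cre+/-;DicerloxP/loxP. Their Cre is under a Pax6 promoter, P0, which is active from E9.0 in the lens and corneal epithelium, both derived from surface ectoderm. Control embryos had the genotype Le-Cre-/-;DicerloxP/loxP, so both groups carried the flanked Dicer alleles, although the sample titles call the controls wild type. Controls carried no Cre, so the presence of Cre and the loss of Dicer cannot be told apart. The labels give neither the sex nor the litter of the embryos.

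Notch signalling passes between neighbouring cells. A ligand such as Jag1 on one cell binds a Notch receptor on the next, the receptor is cut by an ADAM protease and then by the gamma-secretase complex, and the freed intracellular part enters the nucleus and joins the DNA-binding protein Rbpj and a Mastermind coactivator to switch on Hes and Hey genes. Fringe enzymes add a sugar to the receptor and so alter which ligands activate it. In the lens, Notch signalling with Jag1 as a main ligand keeps epithelial cells dividing and takes part in the formation of fibre cells. Dicer cuts microRNA precursors into mature microRNAs, which repress messenger RNAs through their seed, and the comparison asks which of these transcripts differ when it is deleted from the lens precursor.

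Some microRNAs have been reported in other cells to repress genes of this set: miR-34a acts on Notch1 and Jag1, the miR-200 family on Jag1 and miR-9 on Hes1. Their mature sequences in RefSeq (GRCm38.p6) are shown because they are products of Dicer that bear on the genes described, with the seed, bases 2 to 8, in capitals. The miR-200b and miR-200c seeds are identical and the other seeds differ from them. MicroRNA levels were not analysed here.
mmu-miR-34a-5p: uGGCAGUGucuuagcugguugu
mmu-miR-200b-3p: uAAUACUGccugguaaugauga
mmu-miR-200c-3p: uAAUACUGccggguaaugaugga
mmu-miR-9-5p: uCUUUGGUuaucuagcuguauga

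Of the 10 genes, 1 passed the test (limma adjusted p under 0.05 over all genes): Lfng, higher in DicerCN lenses. None was lower. Of all 19938 genes, 6.54% passed, 2.56% as higher and 3.97% as lower, so 1 of 10 is near the background. An unadjusted p under 0.05 was found in 6 of the 10 genes (Notch1, Lfng, Mfng, Rfng, Hes1 and Hey1) and in 18.6% of all genes. The change, DicerCN minus control on the log2 scale, was above 0 in 8 of 10 genes with a median of 0.24, beside a median of -0.0014 over all genes. All 10 lay above the lowest 25% of mean signals. In none did all 5 DicerCN arrays lie on 1 side of all 5 control arrays, which was so for 7.38% of all genes. The groups overlapped in Lfng by a single pair of arrays.

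**Figure D1:**
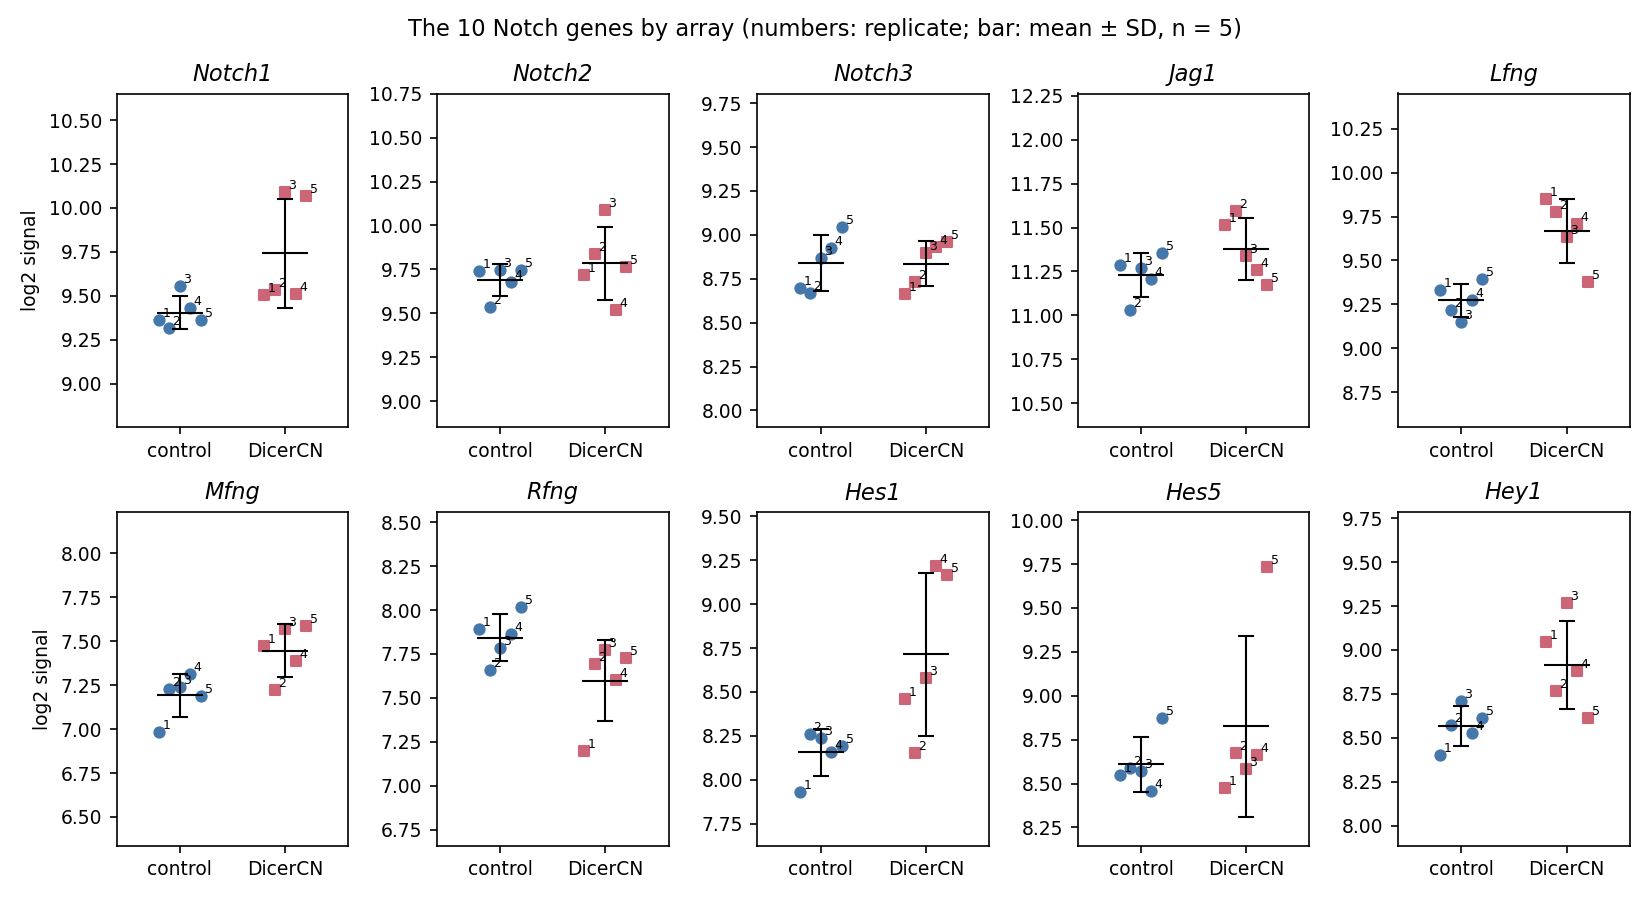
Log2 signal (y axis, each panel spanning the same range) of the 10 Notch genes on the 5 control arrays (blue circles) and 5 DicerCN arrays (red squares), numbered by replicate, with mean and SD. In Lfng, Mfng, Hes1 and Hey1, 4 of 5 DicerCN arrays lie above all controls, and in Hes5 the array DicerCN 5 alone does so.

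Lfng encodes Lunatic fringe, the glycosyltransferase that modifies Notch receptors in many developing tissues. Its log2 signals were 9.33, 9.22, 9.15, 9.27 and 9.39 in control replicates 1 to 5 and 9.85, 9.77, 9.63, 9.71 and 9.38 in DicerCN replicates 1 to 5. DicerCN replicates 1 to 4 were all higher than every control, and DicerCN replicate 5 lay within the control range. Lfng rose 1.32-fold, by 0.40 (SE 0.09, 95% confidence interval 0.19 to 0.60, limma adjusted p = 0.0243), from 9.27 ± 0.09 to 9.67 ± 0.18 (SD, n = 5 each). The exact 2-sided permutation test gave p = 0.0159. The call is close to the threshold: leaving out any 1 of 5 arrays (control 1, 2 or 3, DicerCN 2 or 4) ended it, at adjusted p between 0.0519 and 0.0641. It was also lost with the macrophage (adjusted p = 0.265), endothelium (0.0568) or pigment epithelium (0.0799) score as a covariate, with changes of 0.37, 0.36 and 0.43. Their SEs were 0.14, 0.10 and 0.12. Of all genes, 1.11%, 5.69% and 3.6% passed under these settings, against 6.54% in the main fit. With the neural retina score as a covariate the change was 0.51 (adjusted p = 0.00503), and DicerCN replicate 5, the lowest in Lfng, had the highest retina score.

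Mfng, Manic fringe, is a second enzyme of this family. Its signals were 6.99, 7.23, 7.24, 7.31 and 7.19 in controls and 7.47, 7.22, 7.57, 7.39 and 7.59 in DicerCN lenses. Apart from DicerCN replicate 2, every DicerCN array was above all controls. The difference of 0.26 (SE 0.09, interval 0.06 to 0.45) did not pass (adjusted p = 0.130). Fitted beside the macrophage score it was 0.13. Rfng, Radical fringe, stood the other way, at 7.89, 7.66, 7.78, 7.86 and 8.02 in controls and 7.20, 7.69, 7.77, 7.60 and 7.72 in DicerCN lenses. DicerCN replicate 1 was far below the rest and replicate 4 was also below all controls, while replicates 2, 3 and 5 lay within the control range. The difference of -0.25 (SE 0.11, interval -0.49 to -0.0032) did not pass (adjusted p = 0.261). Leaving out DicerCN replicate 1 gave -0.15, and fitting it beside the macrophage score gave -0.11.

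The changes of paralogs were set against each other within arrays, in 9 pairs chosen after the values were seen: 3 of receptors, 3 of Fringe genes and 3 of Hes and Hey genes. Lfng moved away from Rfng by 0.64 (SE 0.17), with all 5 DicerCN arrays above all controls in the difference of their log2 signals. That gave an exact permutation p = 0.00794, the smallest possible with 5 against 5, and p = 0.0714 after Benjamini-Hochberg adjustment over the 9 pairs. Mfng moved away from Rfng by 0.50 (SE 0.15, exact permutation p = 0.0159, adjusted 0.0714). Lfng and Mfng differed in change by 0.14 (SE 0.16, exact permutation p = 0.389, adjusted 0.500). No pair passed after adjustment, among receptors and repressors either (adjusted p from 0.0952 to 0.770). A single pair at the smallest possible p cannot fall under 0.05 once adjusted over 9 pairs. The adjusted values therefore decide nothing about Lfng and Rfng.

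Among the receptors, Notch1 is the receptor active in many epithelial progenitors. Its signals were 9.36, 9.31, 9.55, 9.43 and 9.36 in controls and 9.504, 9.53, 10.09, 9.51 and 10.07 in DicerCN lenses. DicerCN replicates 3 and 5 were well above all controls, and the other DicerCN arrays lay inside the upper part of the control range. The difference of 0.34 (SE 0.13, interval 0.06 to 0.62) did not pass (adjusted p = 0.166, exact permutation p = 0.0317). Notch2, a close paralog that is also expressed in lens epithelium, stood at 9.74, 9.53, 9.75, 9.68 and 9.75 in controls and 9.72, 9.84, 10.09, 9.52 and 9.76 in DicerCN lenses. DicerCN replicate 3 was highest, replicates 2 and 5 also lay above all controls by small margins, and replicate 4 was below every control. The difference was 0.096 (SE 0.10, interval -0.12 to 0.31, adjusted p = 0.693), and 0.26 with the pigment epithelium score as a covariate. Over the 23 alternatives it ranged from 0.02 (without DicerCN replicate 3) to that value, with 0.16 without DicerCN replicate 4 and 0.057 without control replicate 2, and it passed in 0 of them.

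Notch3, the receptor of mural cells around vessels, stood at 8.70, 8.67, 8.87, 8.93 and 9.05 in controls and 8.66, 8.73, 8.90, 8.93 and 8.96 in DicerCN lenses. DicerCN replicate 1 lay just below the lowest control and the ranges of both groups nearly coincided. The difference was -0.0045 (SE 0.09, adjusted p = 0.990), and its interval of -0.21 to 0.20 leaves room for a difference of that size either way. In bulk lenses, fewer cells of a type and less RNA per cell cannot be told apart. The mural cell score, the mean of 9 markers relative to controls and without Notch3, ranged from -0.23 to 0.47 in controls and from -0.20 to 0.62 in DicerCN lenses, and 1 of its genes, Tagln, rose (by 0.94, adjusted p = 0.0103).

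Jag1 encodes the ligand Jagged1, which marks lens cells at the transition to fibres. Its signals were 11.29, 11.03, 11.27, 11.20 and 11.36 in controls and 11.52, 11.60, 11.34, 11.26 and 11.17 in DicerCN lenses. DicerCN replicates 1 and 2 were above all controls and the other DicerCN arrays lay within the control range. The difference of 0.15 (SE 0.10, interval -0.06 to 0.36) did not pass (adjusted p = 0.481). Quantile normalization gave 0.225, and fits with the retina or pigment epithelium score gave 0.255 and 0.245 (limma adjusted p = 0.280, 0.158 and 0.314). Leaving out DicerCN replicate 2 or control replicate 2 gave 0.091 and 0.096 (adjusted p = 0.700 and 0.715), and leaving out DicerCN replicates 4 and 5 gave 0.25.

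**Figure D2:**
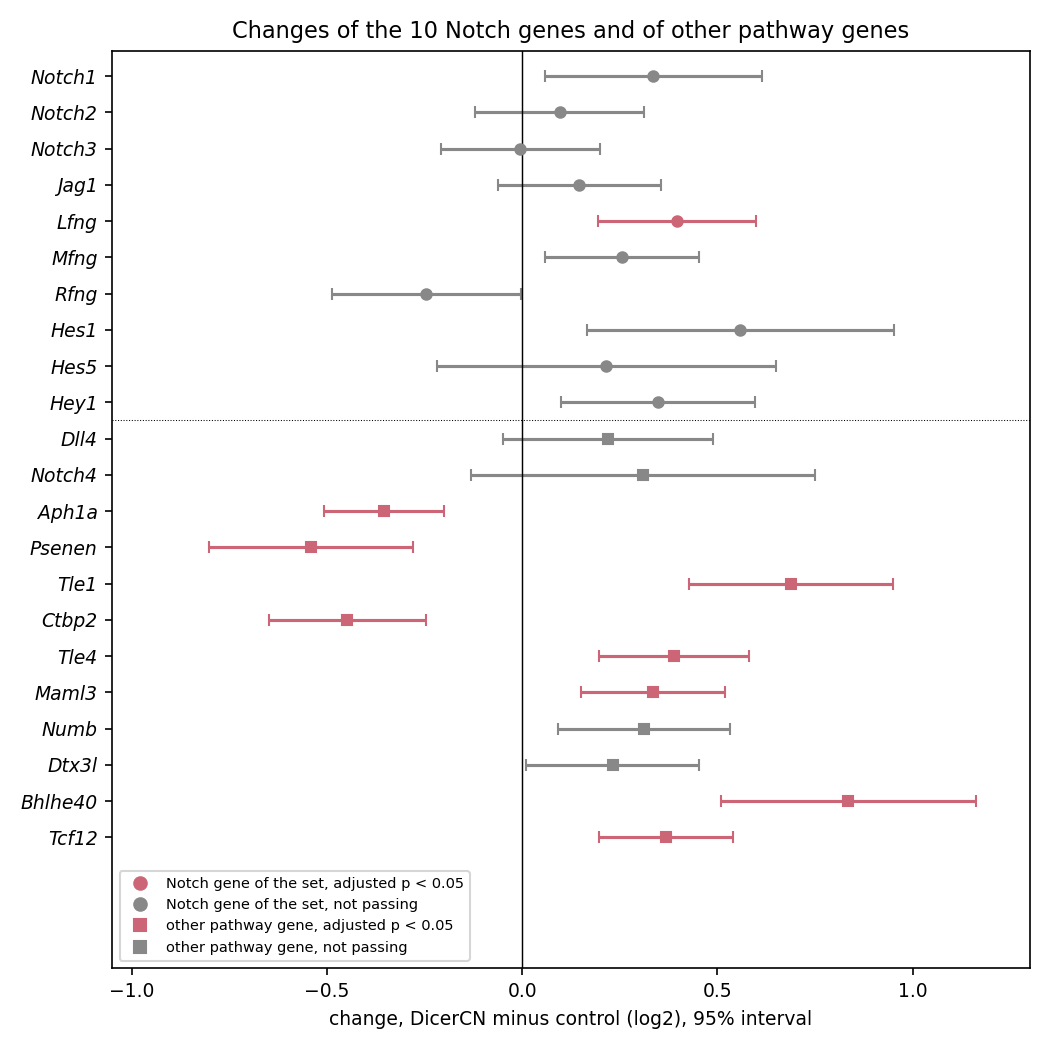
Change (DicerCN minus control, log2, x axis) with its 95% confidence interval for the 10 Notch genes (circles, above the dotted line) and 12 other pathway genes (squares), red where the limma adjusted p was under 0.05. Lfng is the single red circle, while Aph1a, Psenen and Ctbp2 lie below 0 and Tle1, Tle4, Maml3, Bhlhe40 and Tcf12 above it.

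Hes1, Hes5 and Hey1 encode basic helix-loop-helix repressors that answer to active Notch and hold back differentiation factors. Hes1 had the largest difference of the 10 genes, with signals of 7.93, 8.26, 8.24, 8.16 and 8.19 in controls and 8.46, 8.15, 8.58, 9.22 and 9.17 in DicerCN lenses. DicerCN replicates 4 and 5 stood far above the rest, replicates 1 and 3 moderately above all controls, and replicate 2 lay within the control range. The difference of 0.56 (SE 0.18, interval 0.17 to 0.95) did not pass (limma adjusted p = 0.0957, exact permutation p = 0.0397). It passed without DicerCN replicate 2 (0.70, adjusted p = 0.0262) and with array weights (0.64, adjusted p = 0.0431). DicerCN replicate 2 was the lowest DicerCN array in Hes1, so leaving it out was bound to raise the difference. Replicates 4 and 5 also had the highest neural retina scores (0.75 and 1.64, against at most 0.39 in controls) and the highest pigment epithelium scores (1.58 and 1.08, against at most 0.18 in controls). Without both arrays the Hes1 difference was 0.24 (adjusted p = 0.338), and with the retina or pigment epithelium score as a covariate it was 0.33 or 0.20 (adjusted p = 0.329 and 0.601). As these arrays were the highest in Hes1, leaving them out was bound to lower the difference. DicerCN replicate 1 had a pigment epithelium score of 0.93, with Hes1 at 0.30 above the control mean. The cause of the Hes1 difference was not tested.

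Hes5, a repressor best known from neural progenitors, stood at 8.55, 8.59, 8.57, 8.46 and 8.88 in controls and 8.47, 8.68, 8.58, 8.66 and 9.73 in DicerCN lenses. DicerCN replicate 5 alone was above the controls, and the 4 other DicerCN arrays lay within the control range. The difference of 0.22 (SE 0.20, interval -0.22 to 0.65) did not pass (adjusted p = 0.648). Without DicerCN replicate 5 it was -0.011, and with the neural retina score as a covariate -0.082. It was larger beside the macrophage score (0.65, adjusted p = 0.252) and the endothelium score (0.41, adjusted p = 0.168), and 0.10 beside the pigment epithelium score (adjusted p = 0.893). The same array had the highest signal of Dll1, a ligand of neural progenitors named here after its values were seen: 7.91, against 6.17 to 6.60 in controls and 6.20 to 6.82 in the other DicerCN lenses.

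Hey1, a repressor of the related Hey family, stood at 8.40, 8.57, 8.71, 8.53 and 8.61 in controls and 9.04, 8.77, 9.27, 8.88 and 8.61 in DicerCN lenses. All DicerCN arrays but replicate 5 were above all controls. The difference of 0.35 (SE 0.11, interval 0.10 to 0.60) did not pass (limma adjusted p = 0.100, exact permutation p = 0.0159). It passed without DicerCN replicate 5 (0.42, adjusted p = 0.0398), with array weights (0.36, adjusted p = 0.0487) and beside the retina score (0.47, adjusted p = 0.0317). As DicerCN replicate 5 was the lowest DicerCN array in Hey1, leaving it out was bound to raise the difference. DicerCN replicates 1 and 3, the highest in Hey1, also had the highest macrophage scores (0.83 and 0.99) and endothelium scores (0.58 and 0.74). Fitted beside the macrophage score the difference was 0.092 (adjusted p = 0.833), and beside the endothelium score 0.23 (adjusted p = 0.120).

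**Figure D3:**
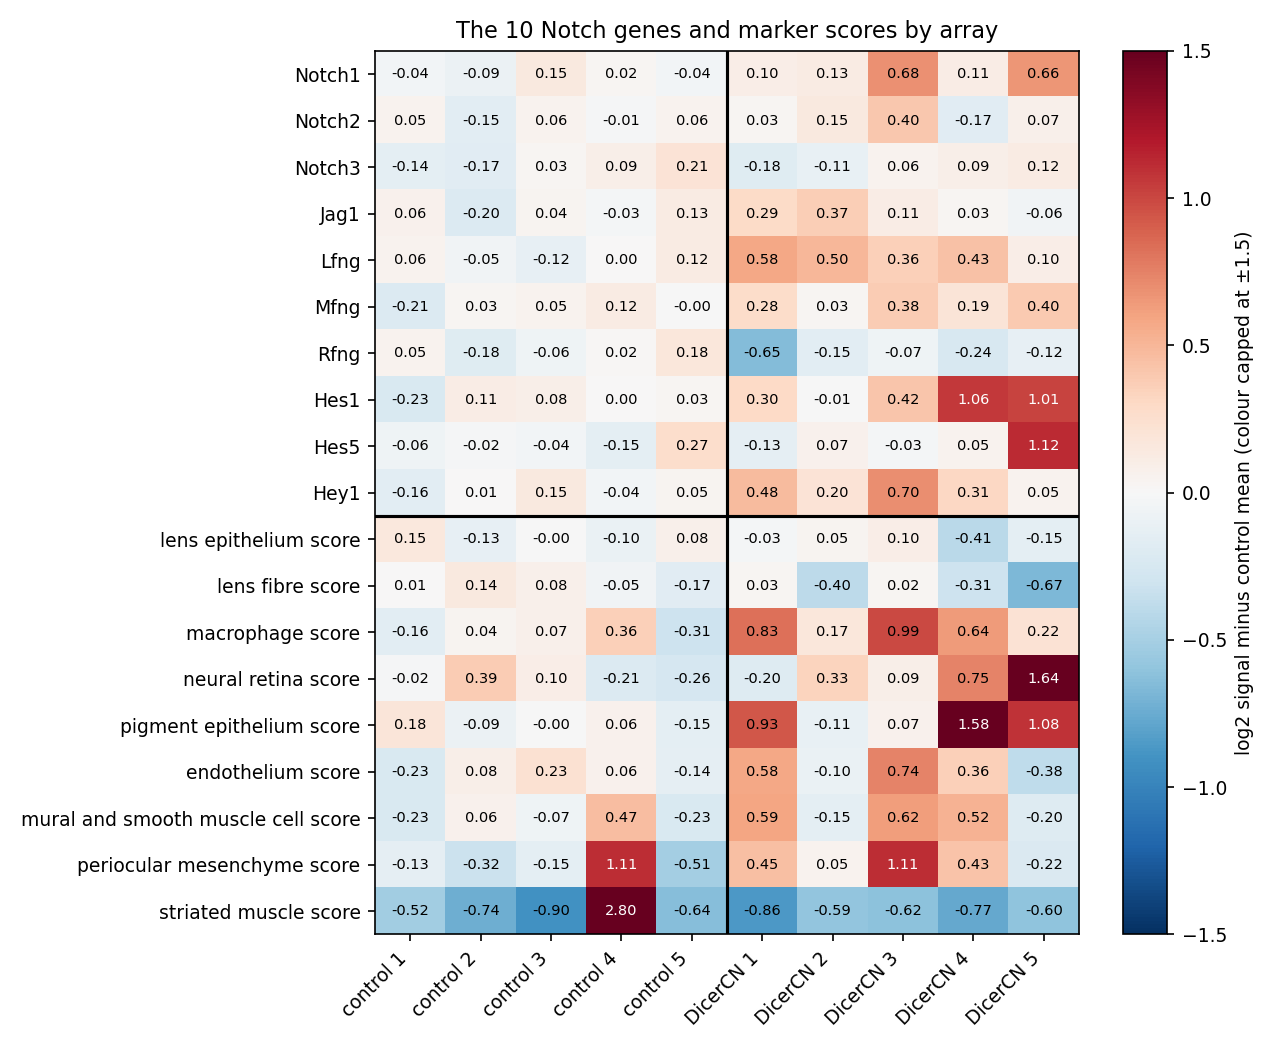
Log2 signal minus the control mean on each of the 10 arrays (columns), with the value printed in each cell. The upper rows are the 10 Notch genes and the lower rows marker scores of lens and other cell types (mean over each list). On DicerCN 5, where the neural retina score is highest (1.64), Hes5 is highest (1.12) and Lfng lowest among DicerCN arrays (0.10), while Hes1 is highest on DicerCN 4 (1.06, against 1.01 on DicerCN 5).

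The 5 DicerCN lenses thus differed in which of the 10 genes were high. Counting genes above all 5 controls, DicerCN replicate 3 had 6 (among them Notch1, Notch2 and Hey1), replicates 1 and 5 had 5 each, and replicates 2 and 4 had 4 each. Below all 5 controls lay 2 genes each in replicates 1 and 4, and 0 in the others. The share of all genes was not counted for single arrays, so these counts have no background beside them. The SD was larger in DicerCN than in control lenses in 9 of 10 genes, all but Notch3, and in 64.7% of all genes. The median SD of the 10 genes was 0.124 in control and 0.219 in DicerCN lenses, against 0.134 and 0.165 over all genes.

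The lens identity of the samples was checked with 7 epithelial and 11 fibre markers, all above the lowest 25% of signals, such as Foxe3 (11.73 in control and 11.68 in DicerCN lenses) and Cryaa (14.42 and 14.36). Of these 18 markers, Cdh1, Pdgfra and Dnase2b fell. All 11 fibre markers had changes below 0 (median -0.16), 4 of them with an unadjusted p under 0.05, and the epithelial markers had a median of -0.0087. Dicer1 had a mean of 10.17 ± 0.13 in controls, against 10.30 ± 0.11 in DicerCN (SD, n = 5 each, limma adjusted p = 0.472). Which exons the loxP sites flank is not in the labels, so this value does not check the genotype. Among 14 macrophage markers 2 rose, Csf1r and Cx3cr1. An unadjusted p under 0.05 was found in 11 of them, 13 lay above 0, and their median change was 0.54. The macrophage score ranged from -0.31 to 0.36 in controls and from 0.17 to 0.99 in DicerCN lenses (exact permutation p = 0.0397, adjusted 0.244 over 11 scores). A single score at the smallest possible p cannot fall under 0.05 once adjusted over 11 scores, so the adjusted value decides nothing about this score. None of 13 retina, 13 endothelium, 9 striated muscle, 7 pigment epithelium, 9 periocular mesenchyme, 8 surface ectoderm or 6 erythroid markers passed the test in limma, while an unadjusted p under 0.05 was found in 3, 2, 0, 5, 1, 2 and 2 of them. Among these lists and the macrophage and mural ones, Aif1, Neurod1, Crx, Fabp7, Tyr, Rpe65 and Cnn1 lay in the lowest 25% of signals. The endothelial markers Kdr and Cdh5 had control means of 9.41 and 8.96, so vessel RNA was present in both groups. The retina list holds Sox1, which lens fibres express as well.

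Beyond the 10 genes, 69 further genes of the pathway were measured, in lists chosen by role with earlier results of these data known. Of these, 5 rose (background 2.56%) and 3 fell (background 3.97%), and their median change was 0.061. In each of the 8 the groups did not overlap, at exact permutation p = 0.00794, the smallest possible. The 8 were picked by the limma test on these same values, so the lack of overlap adds no separate support. Over all genes, 2.96% did not overlap with DicerCN above and 4.42% with DicerCN below.

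Of 11 measured genes for receptor maturation and cleavage, 0 rose and 2 fell, both subunits of gamma-secretase, and 3 had an unadjusted p under 0.05. Psenen, the subunit Pen-2 that the complex needs for its maturation, stood at 11.85, 11.65, 12.07, 11.50 and 11.65 in controls and 11.31, 11.0035, 11.50, 11.11 and 11.11 in DicerCN lenses. Its lowest control, replicate 4, lay next to its highest DicerCN array, replicate 3. It fell by 0.54 (SE 0.12, limma adjusted p = 0.0183). Aph1a, the scaffold subunit, stood at 9.46, 9.62, 9.62, 9.55 and 9.73 in controls and 9.23, 9.29, 9.19, 9.30 and 9.20 in DicerCN lenses, a tight group wholly below the controls. It fell by 0.35 (SE 0.07, limma adjusted p = 0.0108).

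The other gamma-secretase genes measured did not pass: the catalytic presenilin Psen2 stood at -0.015 (adjusted p = 0.965) and the substrate receptor Ncstn at 0.29 (adjusted p = 0.159). Aph1b and Aph1c, near-identical copies whose probes may share signal, stood at 0.18 and -0.044 (adjusted p = 0.495 and 0.878). The ADAM proteases Adam10 and Adam17, which make the first cut, stood at 0.07 and 0.17 (adjusted p = 0.757 and 0.445). The call of Psenen was lost without control replicate 1 (adjusted p = 0.0556), without DicerCN replicates 4 and 5 (0.105), and with the macrophage (0.0844), retina (0.0668) or pigment epithelium (0.110) score as a covariate. Its change was then -0.51 without control replicate 1, -0.48 without DicerCN replicates 4 and 5, and -0.69, -0.49 and -0.51 beside the 3 scores. The call of Aph1a was lost with the macrophage (0.210) and pigment epithelium (0.0652) scores, at changes of -0.31 and -0.35.

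Of 18 measured genes of the nuclear complex and its corepressors, 3 rose and 1 fell. Tle1, a Groucho corepressor that Hes proteins recruit, stood at 7.47, 7.34, 7.72, 7.32 and 7.25 in controls and 7.90, 7.91, 8.20, 8.06 and 8.45 in DicerCN lenses. Every DicerCN array lay above the highest control, replicate 3. It rose 1.61-fold, by 0.69 (SE 0.12, limma adjusted p = 0.00494). Tle4, a second Groucho gene, rose by 0.39 (SE 0.09, adjusted p = 0.0198), and Tle2 and Tle3 stood at 0.086 and 0.027 (adjusted p = 0.724 and 0.927).

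Maml3, a Mastermind coactivator, rose by 0.34 (SE 0.09, adjusted p = 0.0347), while Maml1 and Maml2 stood at 0.27 and 0.20 (adjusted p = 0.269 and 0.317). Ctbp2, a corepressor, fell by 0.45 (SE 0.09, adjusted p = 0.0127). Rbpj, the DNA-binding partner of all Notch receptors, stood at 0.20 (SE 0.11, adjusted p = 0.390) and Ctbp1 at 0.0067 (adjusted p = 0.985). Fitted beside the macrophage score, Tle1 (adjusted p = 0.0878), Tle4 (0.298), Maml3 (0.153) and Ctbp2 (0.325) no longer passed, and the calls of Tle4 (0.135) and Ctbp2 (0.0953) ended with the pigment epithelium score. Beside the macrophage score the changes were 0.71 in Tle1, 0.32 in Tle4, 0.41 in Maml3 and -0.29 in Ctbp2, and beside the pigment epithelium score 0.34 in Tle4 and -0.40 in Ctbp2. The call of Tle4 was also lost with the retina score (0.0796), without DicerCN replicates 4 and 5 (0.110), without control 4 and DicerCN 5 (0.0618), and without control replicate 1 or DicerCN replicate 4 (0.05003 and 0.0531). That of Maml3 was lost without any 1 of 6 arrays (0.0624 to 0.0921), without control 4 and DicerCN 5 (0.0770), and with the striated muscle score (0.0591).

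**Figure D4:**
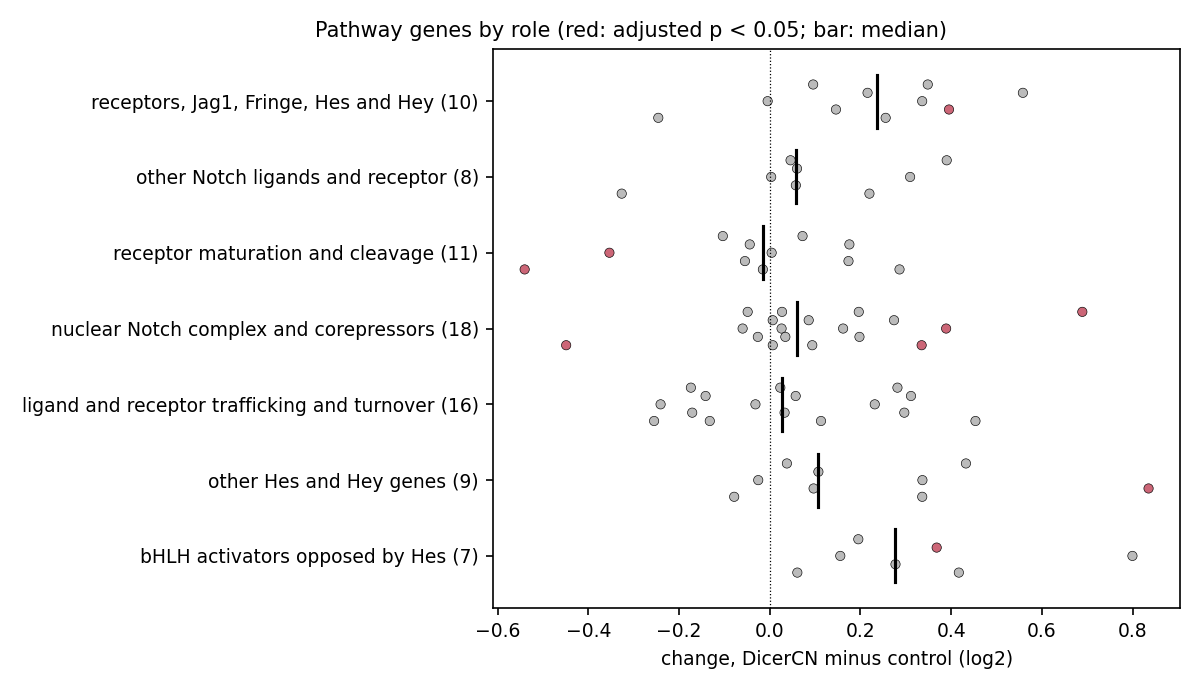
Change (DicerCN minus control, log2, x axis) of each measured gene, by role in the pathway, with the number of genes in brackets, the median as a black bar and genes with limma adjusted p under 0.05 in red. The red points are Lfng among the 10 Notch genes, 2 falls in receptor cleavage, 3 rises and 1 fall in the nuclear complex, and 1 rise in each of the last 2 rows.

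Among the 8 other ligands and receptors, 0 passed the test, and 0 had an unadjusted p under 0.05. Those with the smallest p were Dll4 and Notch4, both known from endothelium. Notch4 stood at 7.67, 7.87, 7.76, 7.81 and 7.59 in controls and 8.37, 7.71, 8.75, 8.02 and 7.39 in DicerCN lenses. DicerCN replicates 1 and 3, which had the highest endothelium scores, were also highest here, and replicate 5, with the lowest endothelium score, was lowest. The difference of 0.31 (SE 0.20, adjusted p = 0.475) was 0.066 with the endothelium score as a covariate and -0.29 with the macrophage score, but 0.57 with the retina score and 0.54 without DicerCN replicates 4 and 5. Leaving out 1 array gave 0.13 (without DicerCN replicate 3) to 0.47 (without DicerCN replicate 5), and none of these values passed. Dll4 stood at 0.22 (SE 0.12, adjusted p = 0.391), and at -0.089 in 1 of the alternatives, with the macrophage score as a covariate.

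Of 16 genes of trafficking and turnover, which tag ligands or receptors for uptake or breakdown, 0 passed, and 4 had an unadjusted p under 0.05. The smallest p were those of Numb, an inhibitor that removes Notch from the cell surface (0.31, SE 0.10, adjusted p = 0.0967), and Dtx3l (0.23, SE 0.10, adjusted p = 0.242). Nrarp, a feedback inhibitor induced by Notch and named here after its value was seen, stood at -0.25 (SE 0.13, adjusted p = 0.341), on the other side of 0 from Hes1 and Hey1.

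Of 9 other genes of the Hes, Hey and related families, 1 passed. Bhlhe40, a related repressor known from the circadian and hypoxia responses rather than as a Notch target, stood at 6.32, 6.17, 6.74, 6.27 and 6.995 in controls and 7.32, 7.34, 7.59, 7.30 and 7.12 in DicerCN lenses. Control replicate 5 came close to the lowest DicerCN array. It rose 1.78-fold, by 0.84 (SE 0.15, limma adjusted p = 0.00586), and the call ended when the macrophage score was fitted beside it (0.86, adjusted p = 0.0989). In the same list, Heyl and Hes6 stood at 0.34 each (adjusted p = 0.246 and 0.234), and Hey2 at 0.11 (adjusted p = 0.845). Of 7 basic helix-loop-helix activators that Hes proteins oppose, 1 rose, Tcf12, by 0.37 (SE 0.08, adjusted p = 0.0155). Its call ended with the macrophage (0.148), retina (0.0632) or pigment epithelium (0.110) score and without DicerCN replicates 4 and 5 (0.0872), while its change stayed between 0.32 and 0.41 in all 23 alternatives. The proneural genes Neurog2 and Atoh7 stood at 0.42 and 0.20 (adjusted p = 0.453 and 0.655). These genes are also on the retina marker list, so their values are not separate from the retina score.

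The promoters of Lfng, the gene that passed, and of Hes5, a classical target, are printed to show the letters that Rbpj is known to bind. They are the 250 bases before the start in RefSeq (GRCm38.p6), Lfng at chr5:140607091-140607340 and Hes5 at chr4:154960673-154960922, both on the plus strand, with matches to TGGGAA or GTGGGAA on either strand in capitals.
Lfng: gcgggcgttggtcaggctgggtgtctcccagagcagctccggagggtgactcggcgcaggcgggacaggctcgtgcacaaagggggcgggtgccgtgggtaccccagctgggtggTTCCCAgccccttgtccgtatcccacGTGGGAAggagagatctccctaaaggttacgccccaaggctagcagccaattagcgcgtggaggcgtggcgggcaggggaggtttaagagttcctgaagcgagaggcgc
Hes5: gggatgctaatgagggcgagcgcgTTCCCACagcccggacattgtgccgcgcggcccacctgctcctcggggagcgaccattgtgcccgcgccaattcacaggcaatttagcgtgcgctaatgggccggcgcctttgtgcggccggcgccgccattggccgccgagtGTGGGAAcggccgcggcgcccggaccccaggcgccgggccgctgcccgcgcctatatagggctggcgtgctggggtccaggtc

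Of the 10 genes, 7 had a promoter window matched by symbol, while Mfng, Hes1 and Hey1 had none and were not searched. GTGGGAA was found in the windows of Lfng (1 match, 109 to 103 bases before the start) and Hes5 (2 matches, at 226 to 220 and 83 to 77 bases). It occurs in 5.42% of 32851 promoter windows of the same length, and 2 or more matches in 0.161%. The shorter core TGGGAA, which every GTGGGAA contains, matched the same 2 windows of the 7 and 21.6% of all. In Lfng the GTGGGAA match shares letters with a CACGTG (112 to 107 bases before the start), the E-box that Hey and other basic helix-loop-helix proteins bind, which 6.02% of windows hold. CACNAG, the N-box bound by Hes proteins, was found in the windows of Notch1, Notch2, Notch3, Lfng and Rfng and in 36.7% of all. These matches describe letters in 1 window per gene and not binding in these lenses. Of the 2 genes printed, Lfng rose and Hes5 did not pass the test.

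By the root mean square distance between log2 profiles over the 10 arrays, each centred on its own mean and with gene models that have only a provisional symbol left out, the genes nearest to Lfng were Nptx2 (0.0800), Nceh1 (0.0829) and Ccn2 (0.0833). Nptx2 encodes a neuronal pentraxin, Nceh1 a cholesterol ester hydrolase and Ccn2 connective tissue growth factor. Their changes were 0.41, 0.38 and 0.38, which the choice by likeness to Lfng fixes.

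**Figure D5:**
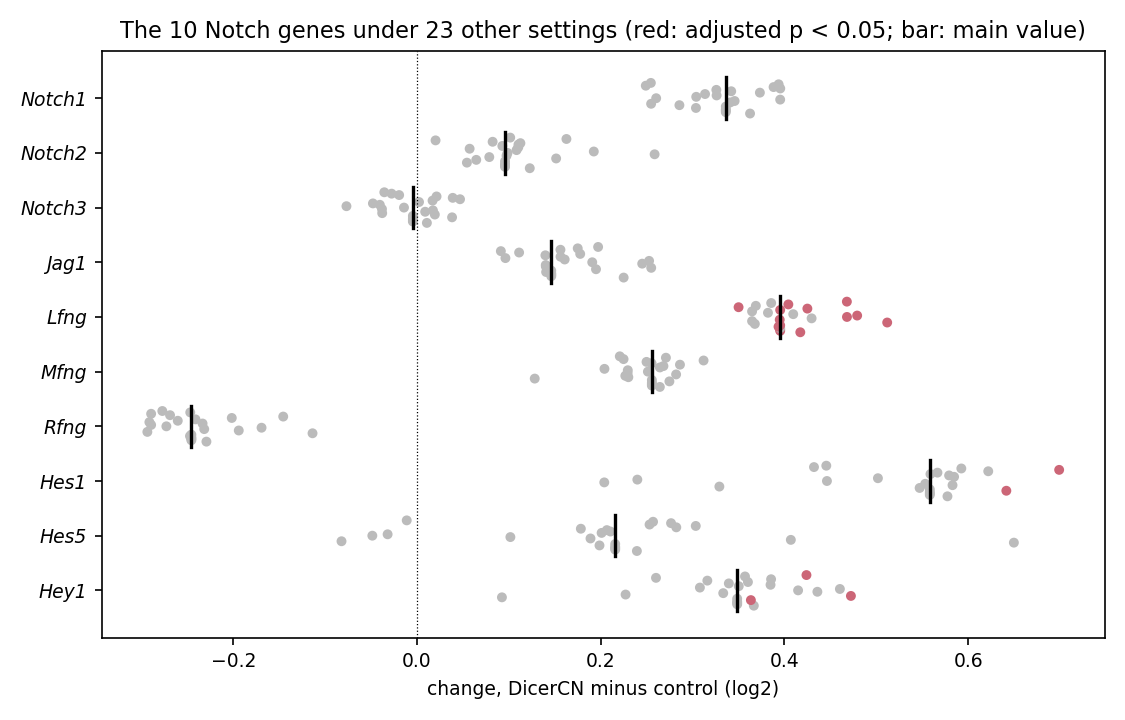
Change (DicerCN minus control, log2, x axis) of the 10 Notch genes under each of 23 other settings (points, red where the limma adjusted p was under 0.05) and under the main setting (black bar). Lfng stayed between 0.35 and 0.51 and passed under 14 of the 23, Hes1 spread from 0.20 to 0.70, and Notch3 and Hes5 lay on both sides of 0. The 14 include the mean over probe sets and the low-signal filter, which leave the values of Lfng unchanged.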

How the data were processed

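The deposited table of the authors holds log2 values of 35557 probe sets on 10 Affymetrix arrays, with array medians of 6.54 to 6.56 and values of 1.91 to 15.2, a range that fits a log2 scale. Per the labels' protocols, 100 ng of total RNA from the lens pair of 1 embryo was labelled per array. The submitters' processing notes name GCOS, and the probe summary, normalization and build are not given in the sources used here. The 21789 probe sets with 1 gene symbol in the platform annotation were used (1621 had several and 12147 none), and 21698 of them matched RefSeq (GRCm38.p6). Where a gene had several probe sets (999 genes), that of highest mean was kept.

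The 19938 genes were fitted with limma (3.58.1, in R 4.3.3), 2-sided, with Benjamini-Hochberg adjustment over all of them, after the fit was tested on simulated data. Single values were compared by exact permutation over 252 splits. A marker score averages, over a list, each log2 signal less its control mean. The number of arrays limits the precision (median SE of a change 0.0986), and with arrays on 1 common scale a change in total RNA cannot be seen. The groups were not paired by replicate number in the main fit (deviations of same-numbered arrays correlated between -0.088 and 0.19).

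The 10 genes and all lists were chosen with earlier results of these data known. The rule named pathway genes that passed, otherwise the 2 of smallest p in a list, the 3 nearest profiles to a gene of the 10 that passed, and of marker lists those that passed and the 2 of highest level. Dll1, Nrarp, Rbpj and the paralogs or complex partners of genes that passed were named after their values were seen. Some listed genes are not reported here.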

Additional observations from a re-analysis of the deposited data

Results flagged for a closer look

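Each of 34 genes and scores was examined in both groups of 5 arrays for a single array set apart by more than 0.71 of the group's range, the 95% limit of Dixon's ratio. Chance alone would mark about 1 in 20 such groups, and 3 of 68 were marked. Hes5 in DicerCN replicate 5 stood at 9.73, against 8.68 for the next highest DicerCN lens. The striated muscle score of control replicate 4 stood at 2.80, against -0.52 for the next control, and the periocular mesenchyme score of the same array at 1.11, against -0.13. On that array the 10 Notch genes lay between -0.15 and 0.12 of their control means.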

How the results depend on the processing

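The 10 genes had 0 lower calls under all 23 alternatives (2 chosen after seeing the data: the pigment epithelium covariate and leaving out DicerCN 4 and 5). The higher calls, 1 in the report, were 3 with array weights, 2 with the retina covariate, 0 with the macrophage, endothelium or pigment epithelium covariate, and 0 to 2 when 1 array was left out. The labels link same-numbered arrays by no more than their number, and a shared litter or batch is not stated. With the replicate block, 0 of the 10 passed, Lfng stood at 0.40 (adjusted p = 0.0569), and Maml3 (0.0900) and Tcf12 (0.0521) did not pass. The block gave 471 higher and 629 lower over all genes, and 1 of 5 numbers (replicate 4) correlated best with its own. The change of Lfng was 0.37, 0.36 and 0.43 with the macrophage, endothelium and pigment epithelium covariates and 0.35 to 0.47 when 1 array was left out. Pathway genes higher, 5 in the report, were 0 with the macrophage covariate, 3 with the retina or pigment epithelium covariate, 3 without control 4 and DicerCN 5, 3 without DicerCN 4 and 5, and 3 to 6 when 1 array was left out. Those lower, 3 in the report, were 0 with the macrophage or pigment epithelium covariate and 2 to 3 when 1 array was left out. Over all genes, 511 were higher and 792 lower: 62 and 159 with the macrophage covariate, 313 and 404 with the pigment epithelium covariate, 523 lower with the retina covariate and 450 lower without DicerCN 4 and 5. Leaving out 1 array gave 303 to 503 higher (fewest without control replicate 1) and 481 to 840 lower. The cause of these moves was not tested. No marker score had an adjusted permutation p under 0.05 in the main setting, under quantile normalization or without any 1 array. A single score at the smallest possible p could not have fallen under 0.05 once adjusted over all scores. These adjusted values therefore decide nothing about a single score. Quantile normalization, the mean over probe sets, the low-signal filter, the intensity trend and the striated muscle covariate kept the Lfng call. Lfng had 1 probe set and lay above the filter, so the mean over probe sets and the filter left its values unchanged. They could move its call only through the other genes fitted.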
